A study of Mus musculus with 29 samples.

Results

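The cells compared were matured cultures, labelled MN, of mouse embryonic stem cells differentiated along a midbrain route, without the estrogen receptor beta agonist LY3201. The comparison took all arrays whose source label was MN WT (wild type, 2 arrays) or MN BERKO (ERb knockout, 3 arrays) with treatment given as none, 5 of the 29 arrays of the series. Each array was a whole-transcriptome mouse array hybridised with labelled cDNA from 150 ng of total RNA. Both genotypes were grown without feeder cells, and the MN medium held N2 supplement and ascorbic acid. Arrays used beside them were MN cultures given 0.5 nM LY3201 (2 WT, 2 BERKO) and the untreated midbrain precursors from which MN follow, labelled mDPC (2 WT, 2 BERKO), which had FGFb, FGF8b and Shh in the medium. For NPC and mDPC the labels name a vehicle, DMSO, given for 4 days; for MN neither a vehicle nor a length of treatment was given. The labels do not say how either line was derived, whether each is 1 clone, or whether the arrays of a group came from separate cultures, so p-values measure the spread between these arrays, which may be technical.

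Estrogen receptor beta, the product of Esr2, is a nuclear receptor that binds estrogens and regulates genes through DNA. BERKO is the usual name of its knockout. Cultures matured from neural precursors can hold neurons, astrocytes, oligodendrocytes, ciliated ependymal cells and still-dividing precursors. A bulk array sums over all of these: fewer cells of a type and less RNA per cell cannot be told apart.

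Levels are log2 signals as deposited, and differences are BERKO minus WT group means on that log2 scale, with the standard error (SE) of the model. A gene was called when its adjusted p from limma, with Benjamini-Hochberg adjustment over 22063 genes, was under 0.05. The 95th percentile of the negative control probes lay between 6.632 and 6.942 in these 5 arrays, and their medians between 3.747 and 3.853. Below that percentile a level is not clearly told from background, so a difference from a level above it to one below it is a lower bound.

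Esr2 stood at 3.41 and 3.34 in the WT arrays and at 4.46, 4.23 and 4.35 in the BERKO arrays. All 5 levels lay far below the 95th percentile of the negative controls. The BERKO arrays were the higher ones, opposite to the label, but signals this low cannot check it. In MN the difference was 0.97 ± 0.11 (n = 2 WT and 3 BERKO arrays, limma adjusted p = 2.99e-06), and the deleted part of the gene was not given. Group means in the other untreated stages were alike: 3.37 in WT and 4.08 in BERKO embryonic stem cells, 3.31 and 4.30 in NPC, and 3.30 and 4.13 in mDPC. BERKO and WT therefore name the labels, and all directions below follow the labels. Esr1, which encodes estrogen receptor alpha, was at 4.03 and 4.02 against 3.7, 3.62 and 3.80, near background, with a difference of -0.32 ± 0.08 (limma adjusted p = 0.00853). That call was lost with each WT array alone (adjusted p = 0.0538 with WT array 1 and 0.0525 with WT array 2) and after quantile normalization (0.0525).

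The MN label was checked against markers of its cell types. Of the general neuronal markers, Map2 lay between 12.06 and 12.6 and Tubb3 between 8.57 and 11.37, whereas Rbfox3, the marker of mature neuronal nuclei, stayed at or below 4.57. Of the dopaminergic markers, the transcription factor gene Nr4a2 lay between 6.11 and 6.37 and the decarboxylase gene Ddc between 4.88 and 5.67, both below the negative controls' 95th percentile. Tyrosine hydroxylase, Th, which makes the dopamine precursor, did not pass the filter on low values. The astrocyte filament gene Gfap lay between 18.9 and 18.98 and the stem cell and glial filament gene Vim between 18.59 and 18.8. MN is used below as the name of the stage only.

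In all, 4584 of 22063 genes were called (20.8%): 2972 were higher in BERKO (13.5%) and 1612 were lower (7.31%), while the median difference of all tested genes was 0.012. Counts in the gene lists below are to be set against these shares. Differences of at least 2-fold were found for 524 higher and 391 lower genes. Among the 8440 genes whose higher group mean passed 6.942, called above background here, 22.3% were higher and 9.1% lower. All 3 BERKO arrays lay above both WT arrays for 25.0% of genes tested and below both for 19.1%, together 44.1%. The call rests on a spread estimated over all 29 arrays. A fit to these 5 arrays alone called 2297 genes (1530 higher, 767 lower), and a fit to the 9 MN arrays 2771.

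The WT arrays differed from each other more than the BERKO arrays did. The SD of their differences across genes was 0.346, against 0.237 to 0.264 for the 3 pairs of BERKO arrays, and 333 genes differed at least 2-fold between them, against 42 to 127. Of those genes, 309 were higher in WT array 2 and 24 in WT array 1. The largest gaps belonged to Car3, a carbonic anhydrase (5.17 in WT array 1 and 13.44 in WT array 2, with 4.43 to 4.45 in BERKO), and to the neuronal genes Tmem130, Dgkk, Snap25, Celf4, Scg2, Stmn2, Nefl, Syt1 and Ina. Stmn2, a tubulin-binding protein of growing axons, was at 10.75 in WT array 1 and at 13.85 in WT array 2, with 10.14 to 10.72 in BERKO. The WT arrays with LY3201 were uneven for the same genes, as Car3 at 7.57 and 12.98 and Stmn2 at 10.79 and 12.81. Of the 309 genes, 294 were also higher in the second than in the first WT array with LY3201. The share of all tested genes that were higher there was not counted. Of the same 309 genes, 201 were called lower in BERKO with both WT arrays and 56 with WT array 1 alone.

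Every result was therefore also taken with each WT array alone. Against WT array 1 alone, 2159 genes were higher (9.79%) and 995 lower (4.51%), 14.3% in all, and against WT array 2 alone 2223 (10.1%) and 1527 (6.92%), 17.0% in all. A core of 2232 genes (10.1%) was called with both WT arrays, had no overlap between groups and was called in the same direction with each WT array alone: 1605 were higher (7.27%) and 627 lower (2.84%). These are called stable below, a word that covers only this check, whose fits share the 3 BERKO arrays. In each fit 1 array stands for the WT group, so the gap between the WT arrays does not enter the spread. A stable gene can therefore still have uneven WT arrays. Of the genes called lower with both WT arrays, 520 kept their call with WT array 2 alone but not with WT array 1 alone, and 231 the other way round.

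**Figure D1:**
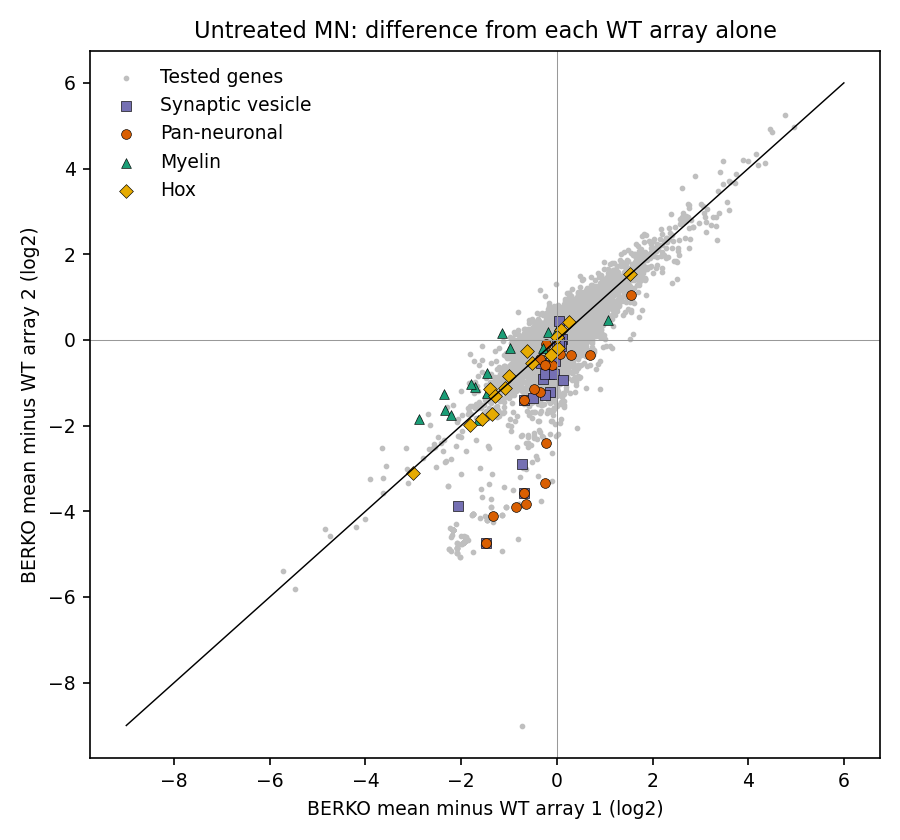
Mean of the 3 BERKO arrays minus WT array 1 (x axis, log2) against the same mean minus WT array 2 (y axis, log2), for the 22063 tested genes; the diagonal marks equal values, and genes in both neuronal lists are drawn in both symbols. Hox genes lie near the diagonal, most pan-neuronal and synaptic vesicle genes below it, most myelin genes above it, and Car3 is the lowest point.

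The 4 MN arrays with LY3201 (2 WT, 2 BERKO) gave the same genotype comparison in other arrays, which share the estimate of the spread with the fit above. There 4322 genes were called (19.6%), 1987 higher (9.01%) and 2335 lower (10.6%). After quantile normalization of all arrays the split was 2723 higher and 1607 lower, so the larger side depends on the scaling, while in untreated MN it was 2832 and 1599. Of the 1605 stable higher genes, 1224 were called higher there (76.3%) and 6 lower, and of the 627 stable lower genes 555 were called lower (88.5%) and 0 higher. Their median differences were 0.775 and -0.855 in untreated MN and 0.564 and -0.843 with LY3201. The difference between the genotype effects with and without LY3201 was called for 139 genes (0.63%), upwards for 8 (0.0363%) and downwards for 131 (0.594%); 73 of the latter were among the genes called higher in untreated MN.

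The 15 largest rises among stable genes above background reached from 3.65 to 5.01. The largest was that of Pgm5, a phosphoglucomutase-related protein of cell junctions, at 9.75 and 9.27 in WT and 14.81, 14.14 and 14.61 in BERKO, a difference of 5.01 ± 0.15 (adjusted p from limma 1.82e-14). The gap between the groups was over 4 log2 units and the spread within them under 1. Susd2, a membrane protein with a sushi domain, was near background in WT (5.22 and 5.21) and clearly present in BERKO (10.24, 10.25 and 10.05), a difference of 4.96 ± 0.12. Luzp2, a leucine zipper protein of neural tissue, was at 11.01 and 10.55 against 15.46, 15.39 and 15.57. The GABA-A receptor subunit genes Gabrb1 and Gabra4 rose by 4.68 ± 0.14 and 3.65 ± 0.20; Gabrb1 was at 7.60 and 7.24 against 11.91, 12.26 and 12.12. The others were Mageb16, of the MAGE family (4.26 ± 0.16), Cnmd, the cartilage protein chondromodulin (4.24 ± 0.14), Spata18, of mitochondrial quality control (4.15 ± 0.14), the lysosomal protease gene Ctsh (4.09 ± 0.17), and Fxyd1, a regulator of the sodium pump (4.04 ± 0.15). Papss2, which makes the sulfate donor PAPS, differed by 3.82 ± 0.29, Cdr1 by 3.82 ± 0.23, the cadherin gene Cdhr4 by 3.7 ± 0.10, Clrn1 by 3.67 ± 0.24 and the collagen VI gene Col6a1 by 3.65 ± 0.17. In the LY3201 arrays all 15 were called higher as well, by 3.14 (Col6a1) to 5.02 (Susd2).

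The 15 largest falls ran from -5.65 to -2.77. Dcn, the collagen-binding proteoglycan decorin, fell from 9.83 and 10.17 to 4.05, 4.64 and 4.37, a difference of -5.65 ± 0.20 (limma adjusted p = 2.6e-13) that is a lower bound because BERKO lay in the range of background. Apod, the lipid carrier apolipoprotein D, was at 13.67 and 13.33 in WT and at 7.59, 7.87 and 8.39 in BERKO (-5.55 ± 0.23), above background in all 5 arrays. Further matrix genes among the falls were Bgn, for biglycan (-4.66 ± 0.14), Thbs1, for thrombospondin (-3.58 ± 0.21), Postn, for periostin (-3.43 ± 0.13), and Lox, the collagen cross-linking enzyme (-3.09 ± 0.23). Elobl, an elongin-related gene, fell from 18.11 and 18.29 to 14.39, 13.22 and 14.15. A2m, the protease inhibitor alpha-2-macroglobulin, fell from 16.16 and 16.37 to 13.27, 13.06 and 12.78. The remaining falls were those of Speer8-ps1 (-4.64 ± 0.16), named as a pseudogene, whose family members may share its probes, the adenylyl cyclase gene Adcy2 (-4.10 ± 0.13), the scavenger receptor gene Colec12 (-3.60 ± 0.19), Lrrc9 (-3.06 ± 0.09) and the ephrin receptor gene Ephb6 (-2.77 ± 0.08).

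The other falls of this size, those of Snap25 and Dgkk, rested on uneven WT arrays. Snap25, a SNARE protein of vesicle release, was at 6.36 and 9.62 in WT and at 4.88, 4.86 and 4.87 in BERKO. Its difference of -3.12 ± 0.57 was -1.49 with WT array 1 alone (limma adjusted p = 0.0088) and -4.75 with WT array 2 alone, and the adjusted p rose to 0.0833 in the fit to the 5 arrays only. Dgkk, a diacylglycerol kinase, was at 5.32 and 9.10 against 4.22, 4.09 and 4.23; its difference was -1.15 with WT array 1 alone and -4.93 with WT array 2 alone, with a limma adjusted p of 0.128 in the 5-array fit. In the LY3201 arrays 14 of the 15 falls were called lower, and Dgkk (-2) was not.

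**Figure D2:**
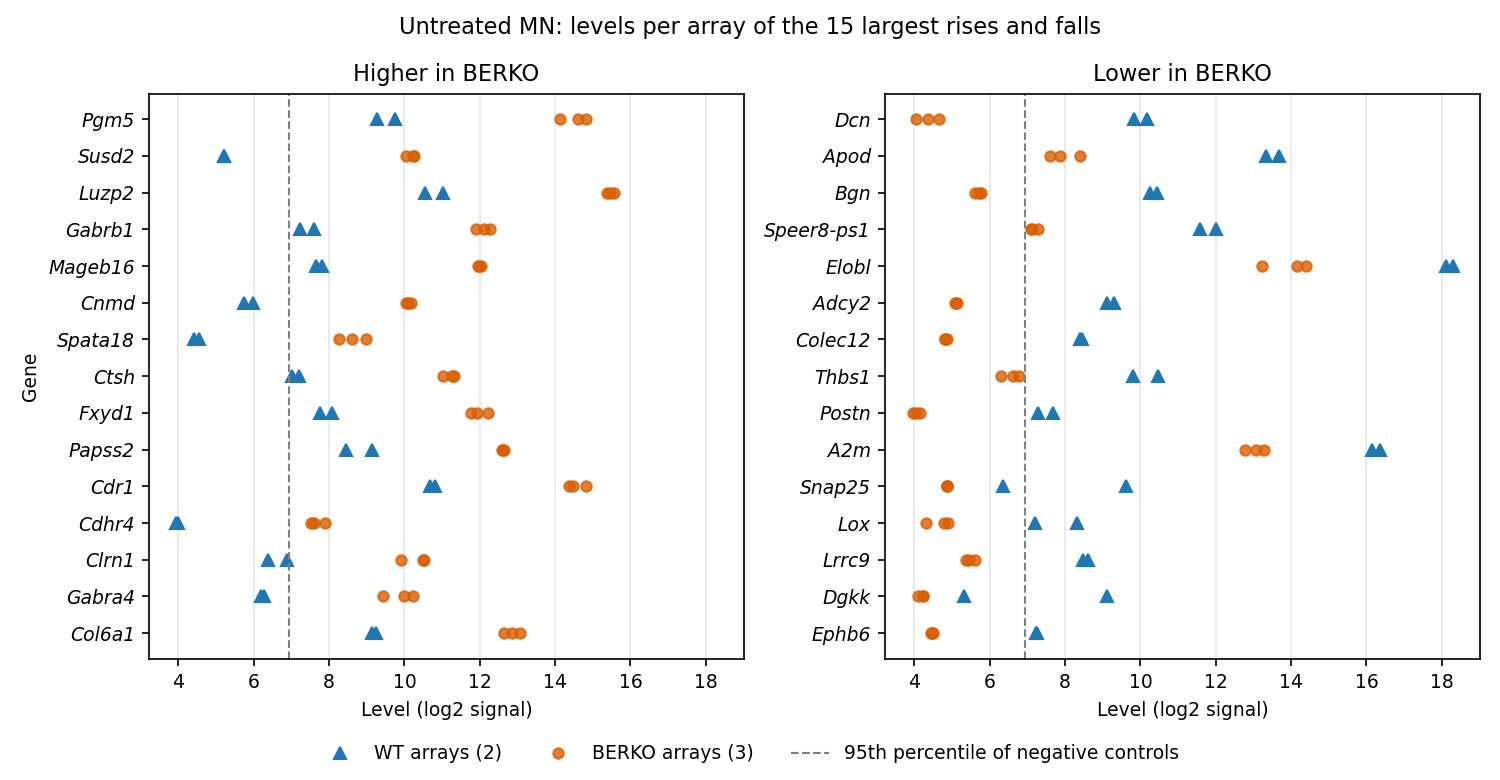
Level (log2 signal, x axis) of the 15 largest rises (left) and 15 largest falls (right) in each untreated MN array; triangles are the 2 WT arrays, circles the 3 BERKO arrays, and the dashed line is the highest 95th percentile of the negative controls, 6.942. The groups are apart for all 30 genes, and the 2 WT arrays are far apart for Snap25 (6.36 and 9.62) and Dgkk (5.32 and 9.1).

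Genes of mitosis rose together. Of 29 tested, 27 were called higher, 0 lower, and 24 were stable; the median was 0.96, against 0.012 for all genes, of which 13.5% were called higher. Their mean level was 7.57 and 7.32 in WT and 8.26, 8.36 and 8.35 in BERKO. Top2a, the topoisomerase that untangles chromosomes, was at 10.61 and 10.37 in WT against 11.55, 11.82 and 11.81 in BERKO (1.24 ± 0.11, limma adjusted p = 5.18e-08). Rises of similar size were found for Prc1, of the midzone spindle (1.20 ± 0.12), the kinase gene Plk1 (1.17 ± 0.15), the spindle motor gene Kif11 (1.16 ± 0.10) and the kinetochore gene Cenpf (1.13 ± 0.13). Mki67, the usual marker of cycling cells, was at 12.24 and 11.69 against 12.71, 12.97 and 12.90 (0.89 ± 0.18, limma adjusted p = 0.00127), without overlap. Birc5 (0.12) and Cdca8 (0.07) were not called.

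Of 26 genes of DNA replication, 15 were higher and 0 lower, with a median of 0.3. The 5-array fit called 6 of the 26 higher, and the fit to the 9 MN arrays 8. The rises were small: the largest were those of the ribonucleotide reductase subunit Rrm2 (0.88 ± 0.14) and the helicase subunit Mcm6 (0.83 ± 0.13). With WT array 1 alone 6 of the 26 were called higher, with WT array 2 alone 13, and without BERKO array 3 there were 9. Of 19 CDK inhibitors and p53 targets, 2 were higher (10.5%) and 1 lower (5.26%), against 13.5% and 7.31% of all genes. None of them was stable, and the inhibitor gene Cdkn1a differed by 0.11 without a call.

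In mDPC the same mitosis genes went the other way: 20 of 29 were lower in BERKO (5.32% of all genes were lower there), 0 were higher, and the median was -0.78. Their mean level was 5.77 and 5.79 in WT mDPC and 4.95 and 4.89 in BERKO mDPC. These means lay below the 95th percentile of the negative controls in the same mDPC arrays (7.17 to 7.343). The difference between the genotype effects of MN and mDPC was called upwards for 27 of 29 (7.31% of all genes), as Top2a at -2.24 in mDPC and 1.24 in MN. With LY3201 the MN difference of these genes had a median of 0.32, and in 3 of 29 it was called smaller than in untreated MN (Top2a, Cenpe and Kif20a). These 3 calls were lost after quantile normalization (limma adjusted p of 0.1 to 0.185), with array weights, in the fit to the 9 MN arrays, and without WT array 2, BERKO array 3, WT array 2 with LY3201 or either BERKO array with LY3201. The mean level of the WT arrays with LY3201, 7.91 and 8.03, lay above that of the untreated WT arrays, and that of the BERKO arrays with LY3201 was 8.27 and 8.38, against 8.26 to 8.36 in the untreated BERKO arrays.

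Promoters of mitosis genes often carry the cell cycle homology element, TTTGAA, through which the DREAM complex silences them outside of division. In the RefSeq promoter windows (GRCm38.p6, from 250 bases before to 50 after the first listed start), TTTGAA stood on either strand in 19 of the 24 mitosis genes that had a window (79.2%), against 13.4% of the 13032 tested genes with one and 18.1% of all 27025. Of the mitosis genes called higher, 18 of 22 windows held it (81.8%), near the share of the whole list. That share describes the list and not these arrays. TTTGAA stood in 13.6% of the windows of all genes called higher and in 11.9% of those of genes called lower, near the share of all tested genes. The bases before the start of Top2a (chr11:99024190-99024439, minus strand) and of Ccnb2, the gene of cyclin B2 (chr9:70421555-70421804, minus strand), are shown 5′ to 3′ as examples of the element, which is in capitals (TTCAAA is its reverse complement). A match is a description of these letters and no measure of binding.
Top2a: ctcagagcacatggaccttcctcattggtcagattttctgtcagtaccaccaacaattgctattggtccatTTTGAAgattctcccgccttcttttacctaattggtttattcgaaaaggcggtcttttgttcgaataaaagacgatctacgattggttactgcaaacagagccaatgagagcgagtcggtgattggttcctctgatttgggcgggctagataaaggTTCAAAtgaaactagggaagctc
Ccnb2: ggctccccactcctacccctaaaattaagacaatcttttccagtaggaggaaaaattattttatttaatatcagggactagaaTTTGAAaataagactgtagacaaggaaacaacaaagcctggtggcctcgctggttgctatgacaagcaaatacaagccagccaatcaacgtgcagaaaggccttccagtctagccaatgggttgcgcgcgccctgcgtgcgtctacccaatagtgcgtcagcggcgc

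Interferon-stimulated genes, which encode antiviral proteins and are switched on by interferon through STAT and IRF factors, were higher in BERKO for 22 of 26 tested and lower for 0, and 18 were stable. The median was 1.14, and 9 of the 26 lay above background. Their mean level was 5.45 and 5.42 in WT and 6.91, 6.4 and 6.81 in BERKO, with array 2 the lowest of the BERKO arrays. Ifit3, an antiviral protein with tetratricopeptide repeats, was at 6.78 and 6.62 in WT and at 10.58, 9.63 and 10.58 in BERKO (3.56 ± 0.22, limma adjusted p = 7.06e-10). Its relative Ifit1 was at 5.97 and 6.55 against 10.03, 8.55 and 10.15 (3.32 ± 0.33). Bst2, the virion-tethering protein tetherin, rose by 2.95 ± 0.22. Usp18, which removes ISG15 from proteins, rose by 2.28 ± 0.25 and Rtp4 by 1.98 ± 0.13, the latter from background levels of 4.16 and 4.18 to levels of at most 6.45. Rsad2, for viperin, rose by 1.81, also within the range of background. Isg15 (0.3), Mx2 (0.35), Ifitm3 (0.27) and Oas1a (0.01) were not called.

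The MHC class I genes, which present peptides to T cells and are interferon-responsive, were higher for 10 of 12 and lower for 0, all 10 stable. H2-K1 was at 5.62 and 5.79 against 7.35, 7.25 and 7.46 (1.65 ± 0.08) and H2-D1 rose by 1.24 ± 0.09. B2m, the light chain, was far above background, at 15.34 and 15.26 against 16.09, 16.36 and 16.40 (0.99 ± 0.15). The peptide transporter gene Tap1 (0.56) and the immunoproteasome gene Psmb8 (0.48) rose within the range of background.

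In mDPC the interferon genes had a median of 0.05, and their mean level, 4.22 and 4.25 in WT and 4.39 and 4.32 in BERKO, was lower than at the MN stage in both genotypes. Ifit3 differed by -0.1 there, and its difference between stages was called. With LY3201 the interferon genes were still higher in BERKO, with a median of 0.76 and levels of 5.6 and 5.6 in WT and 6.28 and 6.41 in BERKO. Ifit3 was then at 7.49 and 7.23 in WT and 8.78 and 8.9 in BERKO, and its genotype difference of 1.48 was smaller than the untreated one by 2.08 ± 0.33 (limma adjusted p = 0.0125). The Ifit3 call was lost in the limma fit to the 9 MN arrays (adjusted p = 0.273) and without BERKO array 1 with LY3201 (0.0543), and its adjusted p ranged from 0.000114 to 0.273 over all alternatives. Gbp3 was the other member with such a call, which was lost in the same fits, after quantile normalization (0.0785) and without several single arrays, WT array 2 among them (0.113).

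The letters GAAA, any 2 bases and GAAA again, the core of the interferon-stimulated response element (ISRE) that the STAT and IRF complex binds, stood on either strand in the promoter window of 14 of 20 interferon list genes (70%), against 3.18% of tested genes and 3.49% of all windows. Of the list members called higher, 11 of 17 windows held it (64.7%), no more than in the whole list. The list was chosen as interferon-stimulated genes, so its share describes the list and not these arrays. Among windows of all genes called higher the share was 3.82%, and among those of genes called lower 2.4%. The windows of Ifit3 (chr19:34583279-34583528, plus strand), Ifit1 (chr19:34640639-34640888, plus strand) and Bst2 (chr8:71537473-71537722, minus strand), the members with the largest rises, are printed 5′ to 3′ up to the base before the start, with the matches in capitals. In the Ifit genes the matches lie on the opposite strand and read TTTC, any 2 bases and TTTC, and in Bst2 the pair of matches overlaps.
Ifit3: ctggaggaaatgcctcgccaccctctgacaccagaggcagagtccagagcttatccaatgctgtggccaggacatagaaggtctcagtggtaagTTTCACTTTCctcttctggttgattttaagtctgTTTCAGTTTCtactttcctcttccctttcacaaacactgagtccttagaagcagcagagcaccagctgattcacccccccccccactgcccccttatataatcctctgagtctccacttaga
Ifit1: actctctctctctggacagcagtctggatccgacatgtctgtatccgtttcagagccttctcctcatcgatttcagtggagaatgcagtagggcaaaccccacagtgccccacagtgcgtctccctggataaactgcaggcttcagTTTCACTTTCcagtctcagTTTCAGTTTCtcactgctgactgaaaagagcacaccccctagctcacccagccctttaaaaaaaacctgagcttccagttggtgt
Bst2: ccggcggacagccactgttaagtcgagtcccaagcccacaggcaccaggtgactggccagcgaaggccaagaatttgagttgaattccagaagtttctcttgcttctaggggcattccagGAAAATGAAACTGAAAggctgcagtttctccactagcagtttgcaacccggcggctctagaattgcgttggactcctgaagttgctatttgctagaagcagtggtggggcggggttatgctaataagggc

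The full estrogen response element, GGTCA, any 3 bases and TGACC on either strand, stood in 4 of the 13032 windows of tested genes (0.0307%) and in 0 of the 2119 windows of higher and 0 of the 1000 windows of lower genes, so these windows hold too few of them for any comparison. Of 15 tested estrogen receptor and target genes, 5 were higher and 3 lower, against 13.5% and 7.31% of all genes, and 2 and 1 were stable. The 5 became 2 without WT array 1, 3 without WT array 2, 3 without BERKO array 1 and 2 in the 5-array fit. The list holds the receptor genes themselves: Esr2 was among the stable rises and Esr1 among the falls, both within the range of background. Among the targets, Myb rose by 2.43 ± 0.13 and Igfbp4, which binds insulin-like growth factors, fell by 1.44.

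Genes of motile cilia, the beating extensions of ependymal cells, were higher in BERKO for 21 of 29 tested and lower for 2. Of these, 18 and 2 were stable, and the median of the 29 was 0.86. The 5-array fit called 12 of the 29 higher. The mean level of the list was 7.09 and 7.03 in WT and 8.22, 7.58 and 7.97 in BERKO, again with BERKO array 2 nearest to WT. Tmem212 was at 4.04 and 4.49 against 7.37, 7.18 and 7.54 (3.09 ± 0.16), and Spag6l, of the axoneme's central pair, at 5.6 and 5.21 against 8.77, 7.91 and 8.42 (2.96 ± 0.16). Ak7 rose by 2.75 ± 0.19, the tektin gene Tekt1 by 2.19 ± 0.15 and the radial spoke gene Rsph1 by 1.92 ± 0.23. The regulators that start the multiciliated programme, Mcidas (1.17) and Ccno (1.27), rose within the range of background, and Rfx3 did not change its level by more than its error (-0.05, limma adjusted p = 0.816). The members called lower were Ecrg4, which encodes a secreted peptide precursor of ependyma and choroid plexus (14.36 and 14.67 against 13.42, 12.59 and 13.28), and the dynein gene Dnah11 (-0.85). In mDPC the cilia genes were near background in both genotypes (mean level 4.21 and 4.22 against 4.22 and 4.22), with a median difference of -0.07. Cdhr4 and Spata18, among the largest rises, were likewise at background in WT MN. Of 7 choroid plexus genes, 1 was higher and 3 lower (1 without WT array 2), all within 1 log2 unit and with group means below 6.942.

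**Figure D3:**
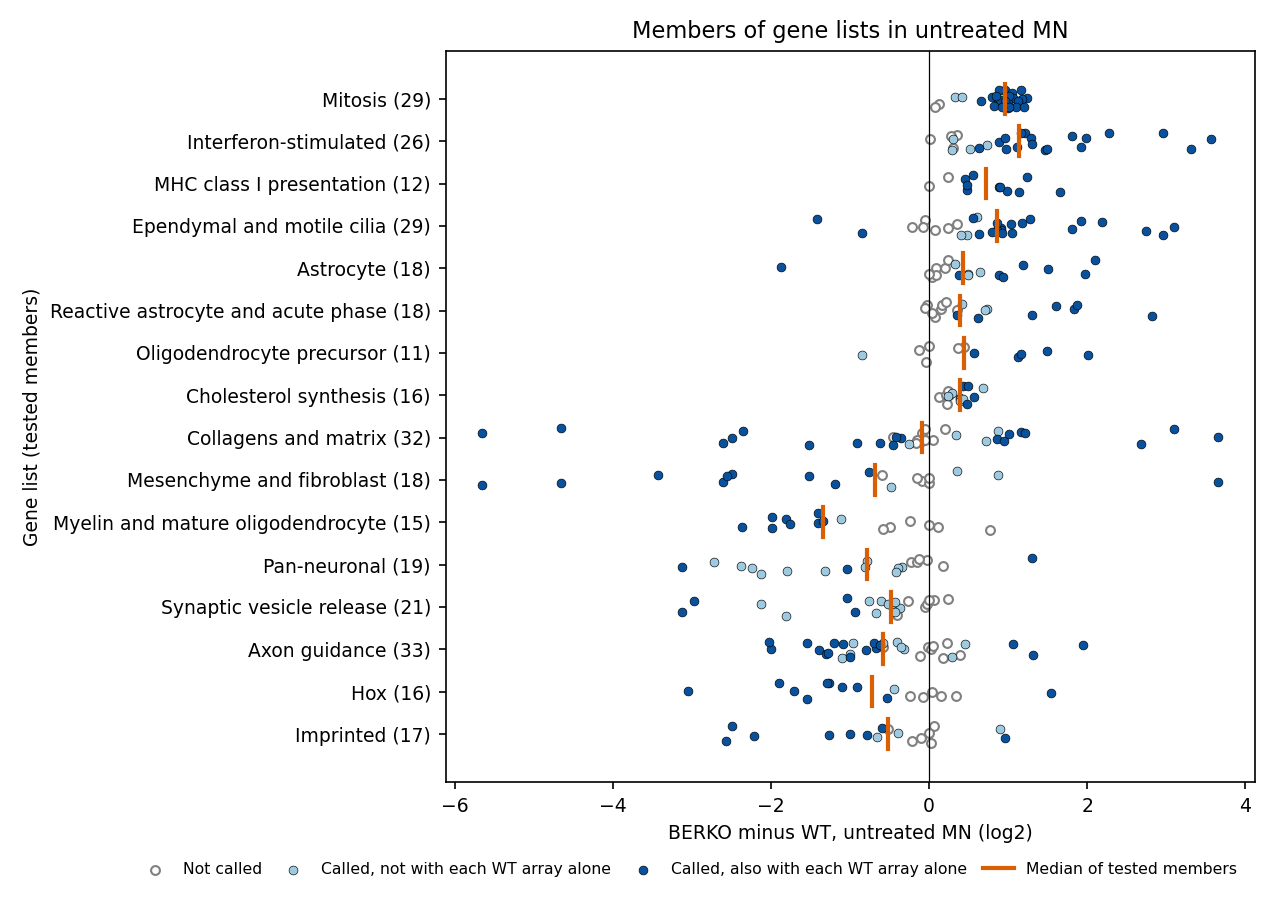
Difference BERKO minus WT in untreated MN (log2, x axis) of each tested member of 16 gene lists (y axis, number of tested members in brackets); open circles were not called, light blue ones were called with both WT arrays but did not pass the check with each WT array alone, dark blue ones passed it, and the orange bar is the median. Mitosis genes sit close to 0.96, and most called pan-neuronal and synaptic vesicle genes are light blue.

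Among 18 astrocyte genes, 11 rose (7 without WT array 2) and 1 fell, with a median of 0.43 and 7 and 1 stable. Among all genes 13.5% rose and 7.31% fell. S100b, a calcium-binding protein, was at 12.27 and 11.64 against 13.98, 14.01 and 14.19 (2.10 ± 0.24). The neurotensin receptor gene Ntsr2 rose by 1.97 ± 0.18, the matrix protein gene Sparcl1 by 1.5 ± 0.13 and the folate enzyme gene Aldh1l1 by 1.19 ± 0.09. Slc1a2, the main glutamate transporter of mature astrocytes, fell from 13.38 and 13.15 to 11.28, 11.47 and 11.42 (-1.87 ± 0.12), while the related Slc1a3 rose by 0.5. Gfap differed by 0.04 (limma adjusted p = 0.92).

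Of 18 genes of reactive astrocytes and the acute phase, 10 were higher, 7 of them stable, and 0 lower, against 13.5% and 7.31% of all genes. Serpina3n, a secreted protease inhibitor, was at 12.73 and 13.32 against 15.62, 16.11 and 15.80 (2.82 ± 0.18), and the rises of S1pr3 (1.87), Timp1 (1.83), the oncostatin M receptor gene Osmr (1.6) and Hspb1 (1.29) followed. Lcn2, a common marker of reactive astrocytes, differed by 0.07 without a call. Complement genes split: C4a (2.08 ± 0.14), C4b (1.70 ± 0.10) and C1ra (1.66 ± 0.11) rose, and the inhibitors Serping1 (-1.66 ± 0.17) and Cd55 (-1.60 ± 0.10) fell.

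Of 17 genes of radial glia and neural stem cells, 5 were higher (29.4%) and 3 lower (17.6%), against 13.5% and 7.31% of all genes. The matrix glycoprotein gene Tnc was at 7.45 and 7.53 against 10.69, 10.48 and 10.61 (3.10 ± 0.22), and the filament gene Nes rose by 0.95 ± 0.20. Prom1, which encodes the membrane protein CD133, fell from 9.06 and 9.27 to 7.03, 7.05 and 6.98 (-2.15 ± 0.12), and Sox2 differed by -0.21 without a call.

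Genes of oligodendrocytes split by maturity. Of 11 precursor genes, 5 were higher and 1 lower: the complement-related gene C1ql1 rose by 2.01 ± 0.20, the lineage factor Olig2 by 1.5 ± 0.16 (12.91 and 12.30 against 14.25, 13.90 and 14.16), Lhfpl3 by 1.16 ± 0.11, and Cspg4 by 1.12 ± 0.13 within the range of background, while Gpr17, of committed precursors, fell (-0.85, limma adjusted p = 0.031), a call lost with WT array 2 alone. Of 15 genes of myelin and mature oligodendrocytes, 0 were higher and 9 lower, 8 of them stable, and the median was -1.34. Mobp was at 11.50 and 10.48 in WT and 8.34, 9.10 and 8.44 in BERKO (-2.36 ± 0.27). The myelin genes Mal (-1.99 ± 0.30) and Mog (-1.99 ± 0.24), the galactolipid enzyme gene Ugt8a (-1.81 ± 0.35) and Ermn (-1.76 ± 0.23) fell as well, and Mag fell by 1.41. Mbp (-0.24), Cnp (0.12), Opalin (-0.5) and Cldn11 (0.77) were not called. The mean level of the list was 9.44 and 8.93 in WT and 7.75, 8.47 and 8.21 in BERKO. With LY3201 the WT arrays were lower, at 8.78 and 8.0, and overlapped with the BERKO arrays at 8.03 and 7.79; the median difference there was -0.31. In mDPC the median of the myelin list was 0.4, and the difference between stages was called downwards for 10 of 15 (5.15% of all genes). Of the 11 precursor genes, 7 were already higher in BERKO mDPC and 1 lower, against 8.51% and 5.32% of all genes. Their median was 0.83 in mDPC and 0.44 in MN, and the difference between stages was called downwards for 5 and upwards for 2.

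Neuronal genes were lower in BERKO by the fit to both WT arrays, and most of these calls rested on WT array 2. Of 19 pan-neuronal genes, 13 were lower and 1 was higher; with WT array 2 alone 14 were lower, with WT array 1 alone 2, and 1 in the 5-array fit. The mean level of the list was 6.87 in WT array 1 and 8.25 in WT array 2, against 6.5, 6.61 and 6.64 in BERKO. With LY3201 this level was 6.78 and 7.57 in WT and 6.46 and 6.48 in BERKO, with 5 genes called lower and 1 higher. In mDPC it was 6.58 and 6.59 in WT and 6.22 and 6.21 in BERKO, with 4 called lower and 1 higher. Of 21 genes of synaptic vesicle release, 14 were lower with both WT arrays, 16 with WT array 2 alone and 4 with WT array 1 alone, and 0 were higher in the fit to both. Tubb3, the neuronal tubulin, was at 9.19 and 11.37 against 8.57, 9.25 and 9.09, so that WT array 1 lay within the BERKO range. Ina, a neurofilament protein, was at 7.89 and 10.66 against 6.76, 6.43 and 6.48, and its difference of -1.34 with WT array 1 alone missed the threshold (limma adjusted p = 0.0974). The members that passed with each WT array were Snap25 and Syp in the pan-neuronal list, and these together with Pclo and the synaptotagmin gene Syt4 in the vesicle list. Uchl1, an abundant neuronal deubiquitinase, went against the rest, at 10.02 and 10.51 in WT and 11.63, 11.47 and 11.59 in BERKO (1.30 ± 0.11, limma adjusted p = 6.63e-08).

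Receptor and channel genes did not move as 1 group. Their counts stand beside 13.5% higher and 7.31% lower among all genes. Of 17 genes of GABA neurons and receptors, 2 were higher (Gabrb1 and Gabra2) and 7 lower, 1 of them with WT array 1 alone. Gabra2 rose by 1.44 with the cluster used and by 0.54 in another cluster of the gene. Gabrg1, a further subunit gene, fell from 9.34 and 9.45 to 8, 8.10 and 8.16. Of the 16 glutamate genes, the metabotropic receptor gene Grm3 (2.14) and the AMPA receptor gene Gria4 (1.25) were stable rises, and Slc17a6, the vesicular glutamate transporter, was at 4.40 and 6.29 against 2.80, 2.78 and 2.83, all in the range of background. Of 20 voltage-gated channel genes, 4 were higher and 6 lower (3 and 2 stable). The 6 became 11 without WT array 1, 2 without WT array 2, 3 without any 1 of the BERKO arrays and 1 in the 5-array fit. The potassium channel gene Kcnd2 rose by 1.96 ± 0.19 and the calcium channel subunit gene Cacna2d3 fell from 7.28 and 7.79 to 4.81, 5.12 and 4.91. Of 16 dopaminergic midbrain genes, 2 were higher and 5 lower (1 and 2 stable), with a median of -0.17. Without WT array 2, and in the 5-array fit, 2 were lower, and with the stricter filter on low values 0 were; the members called stayed within 1 log2 unit of 0. Aldh1a1, which makes retinoic acid, differed by 0.04.

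Among 18 mesenchymal genes, 10 fell and 3 rose, with 9 and 1 stable and a median of -0.68. Beside Dcn, Bgn and Postn, the fibrillar collagen genes Col3a1 (7.01 and 6.88 against 4.26, 4.34 and 4.42), Col1a1 (7.10 and 6.97 against 4.39, 4.55 and 4.68) and Col1a2 fell, as did the matrix protease gene Mmp2 (-2.55 ± 0.09). Col6a1 and Col6a2 (2.68 ± 0.15) rose in the same arrays, so the 32 genes of collagens and matrix split into 11 higher and 12 lower. The WT levels of Col1a1 and Col3a1 were at the edge of background. Of 12 pericyte and smooth muscle genes, 1 was higher and 5 lower (2 in the 5-array fit), as Acta2 at 10.54 and 10.55 against 9.68, 8.29 and 9.38. Microglia markers (1 of 7 higher and 1 lower) and endothelial markers (0 of 6 higher and 2 lower) were near background, with Cd68 at 4.81 to 5.07 and Pecam1 at 3.2 to 3.43. The shares of all genes were 13.5% higher and 7.31% lower. The part of cells of these types in the results was not tested.

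Genes of position along the neural axis differed and did so already in mDPC. Of 16 Hox genes, which mark hindbrain and spinal cord, 10 were lower and 1 higher, 9 and 1 stable, with a median of -0.72 in MN, -0.97 in mDPC and -0.67 in MN with LY3201. Hoxc8 was at 6.75 and 6.85 against 3.61, 3.79 and 3.84, and Hoxb6 (-1.90 ± 0.13), Hoxb8 (-1.71 ± 0.14) and Hoxc9 (-1.55 ± 0.13) fell, all from WT levels below 6.942, the highest of the negative controls' percentiles in these arrays. Hoxa2, a hindbrain gene, rose from 7.05 and 7.05 to 8.40, 8.76 and 8.61. Of 21 forebrain and midbrain factors, 10 were higher and 3 lower, led by Zic1 (7.09 and 6.92 against 9.62, 9.35 and 9.68). Among 33 axon guidance genes, 20 fell and 5 rose, with 13 and 3 stable, as Epha7 (-2.02 ± 0.17) and Sema3c (-2 ± 0.15) against Sema3d (1.95 ± 0.14).

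Signalling lists are set against shares of 13.5% higher and 7.31% lower among all genes. In the BMP and TGF-beta list, 8 of 21 were higher and 3 lower, with 6 and 2 stable: the ligand gene Bmp6 was at 9.43 and 8.49 against 12.74, 11.85 and 12.34 (3.35 ± 0.22), the target gene Id2 rose by 1.44 ± 0.19, and the ligand gene Bmp4 fell by 1.18. Of 18 Notch genes, 4 were higher and 2 lower (3 and 2 stable), with the receptor gene Notch2 at -1.75 ± 0.16 and the target gene Hey1 at 1.19 ± 0.17. Of 16 hedgehog genes, 4 were higher and 4 lower (1 and 3 stable), with 2 higher when WT array 1 was left out, and the target genes Gli1 (-0.19) and Ptch1 (-0.08) were not called. Of 23 Wnt genes, 6 were higher and 3 lower, but 1 and 0 were stable: 2 were higher without either WT array and 3 without BERKO array 3. Of 18 FGF genes, 2 were higher and 4 lower (1 and 2 stable), with 2 lower without WT array 2. Of 14 immediate early genes, 5 were higher and 1 lower, with Fos at 7.56 and 8.19 against 9.63, 10.35 and 9.32.

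Of 16 genes of cholesterol synthesis, 11 were higher and 0 lower, with a median of 0.38 and no member above 0.68; 4 were called with WT array 2 alone and 9 with WT array 1 alone. The 5-array fit called 5 of the cholesterol genes higher, and the fit to the 9 MN arrays 4. Of 17 imprinted genes, 9 were lower and 2 higher, against 7.31% and 13.5% of all genes. Peg3 was at 10.90 and 12.02 against 9.06, 8.76 and 8.86, and Peg10 (-2.49 ± 0.19) and its neighbour Sgce (-1.26 ± 0.08) fell together, whereas Dlk1 (0.06) was not called. Of 22 genes of glycolysis and hypoxia, 2 were higher and 6 lower, and 1 was lower with WT array 1 alone; Pfkp, a phosphofructokinase, rose by 2.45 ± 0.16. Of 20 pluripotency genes, 2 were higher (10%) and 1 lower (5%), both below the shares of all genes, and Pou5f1 (-0.19) and Nanog (-0.02) were not called.

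Set beside mDPC, the genotype difference of MN was shared in part. Of the 2972 higher genes, 848 were called higher in mDPC as well, 210 were called lower there and 1914 were not called; of the 1612 lower genes, 351, 70 and 1191 were lower, higher and not called. In mDPC 8.51% of all genes were higher and 5.32% lower. The test of the difference between the stages called 2749 genes (12.5%), 1613 upwards and 1136 downwards, and it shares the MN arrays with the comparison above. Gabrb1, Luzp2, Mageb16 and Cdr1 were already higher in mDPC by 5.4, 5.87, 5.11 and 3.59, and Bgn and Speer8-ps1 already lower by 4.2 and 4.79 log2 units. In contrast Susd2 differed by 5.27 ± 0.17 more in MN than in mDPC, Padi2, a protein-citrullinating enzyme, by 5.17 ± 0.29, Spata18 by 4.18 ± 0.21, Cnmd by 4.05 ± 0.21 and Papss2 by 3.94 ± 0.43. Padi2 had opposite signs, at -2.09 in mDPC and 3.08 in MN. In the other direction stood Dcn (-5 ± 0.30), Elobl (-4.14 ± 0.44), the folate enzyme gene Aldh1l2 (-3.75 ± 0.18), Tmem255a (-3.64 ± 0.15) and Ecrg4 (-3.53 ± 0.32). In mDPC Dcn lay in the range of background in both genotypes (group means of 5.40 in WT and 4.75 in BERKO), so a fall could hardly be seen there. In untreated NPC its means were 10.93 in WT and 6.06 in BERKO. Susd2, Spata18 and Cnmd were likewise in the range of background in both genotypes in mDPC. Aldh1l2 was higher in BERKO mDPC by 3.42 and missed the threshold in MN (-0.32, limma adjusted p = 0.0767), and Ecrg4 was at 2.11 in mDPC and -1.42 in MN. Of the genes of the integrated stress response, which is set off by amino acid shortage and other stresses, 12 of 19 differed downwards between the stages and 0 upwards, with medians of 1.05 in mDPC and -0.11 in MN. In MN 3 of the 19 were higher, led by the cystine transporter gene Slc7a11 (1.54 ± 0.21), and 3 were lower.

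**Figure D4:**
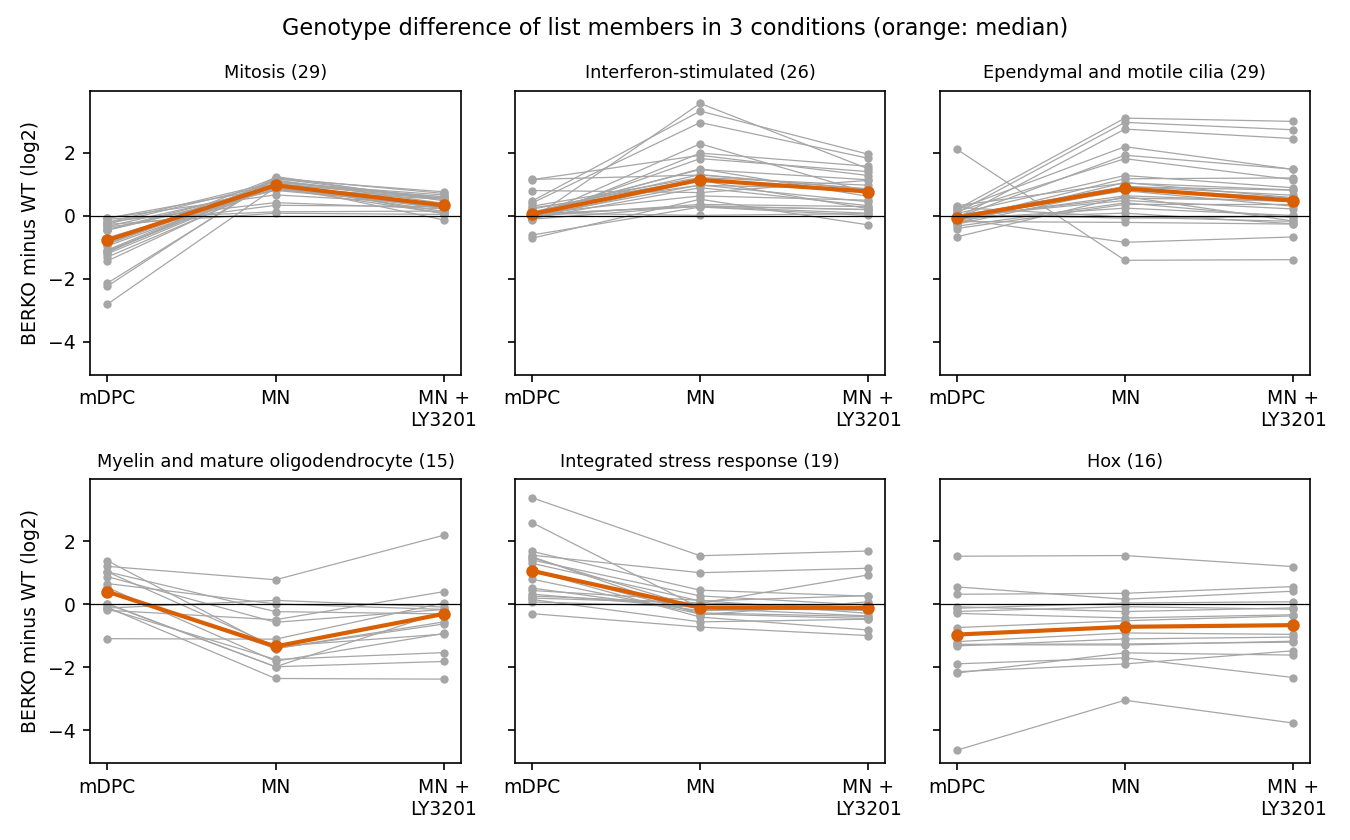
Difference BERKO minus WT (log2, y axis) of each tested member of 6 gene lists (grey, number in brackets) and their median (orange) in untreated mDPC, untreated MN and MN with LY3201. The mitosis median goes from -0.78 to 0.96 and 0.32, that of the integrated stress response from 1.05 to -0.11, and the Hox median stays below 0 in all 3 conditions.

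Neighbouring genes at the start of the X chromosome were lower together, a pattern found after the values had been seen and given without a test. Protein-coding tested genes were put in the order of the RefSeq annotation (GRCm38.p6), and called genes were counted in every window of 20 neighbours. Windows held a median of 1 lower gene. The highest count was 17 of 20, in windows from Shroom4 to Pqbp1 and from Dgkk to Timm17b on X, and of 44 windows with at least 10 lower genes 29 lay on X. From Vamp7 to Ftsj1, 29 of 42 tested genes were lower, 24 of them stable, and 0 were higher. Of the 18 above background, 17 were lower, with a median of -0.99, and the other, Tmlhe, differed by -0.08.

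The members of this stretch have unrelated roles. Porcn, which lipidates Wnt proteins, was at 8.48 and 8.69 against 6.93, 7.10 and 7.10 (-1.54 ± 0.10), and Otud5, a deubiquitinase, at 8.79 and 8.92 against 7.77, 7.80 and 7.78 (-1.07 ± 0.07). The deacetylase gene Hdac6 was at 8.11 and 8.67 against 7.46, 7.59 and 7.59, and the vesicle fusion gene Vamp7 at 12.22 and 12.33 against 11.26, 11.29 and 11.32. Beyond the last gene, Dynlt3 (-1.06), Rpgr (-1.3) and Mid1ip1 (-1.03) were lower as well, and Atp6ap2 (-0.24) and Med14 (-0.17), which follow, were not lower by this amount. The 18 genes had medians of -1.24 in MN with LY3201, -1.12 in mDPC, -0.92 in NPC and -0.93 in embryonic stem cells, all from other arrays. On the rest of X, 24 of 218 genes above background were lower and 58 higher, with a median of 0.08. Syp and Dgkk of the neuronal results lie inside the stretch. For higher genes, windows held a median of 3, and 114 windows held at least 10. The window with the most, 14 of 20, ran from Dlst to Cipc on chromosome 12, and 1 on chromosome 13, from Foxc1 to Pxdc1, held 13. Chromosome 12 also carries Esr2, with 81 tested genes between Esr2 and Dlst, and a link between them was not tested. Of the 40 nearest tested neighbours of Esr2, 9 were higher and 4 lower, against 13.5% and 7.31% of all genes.

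**Figure D5:**
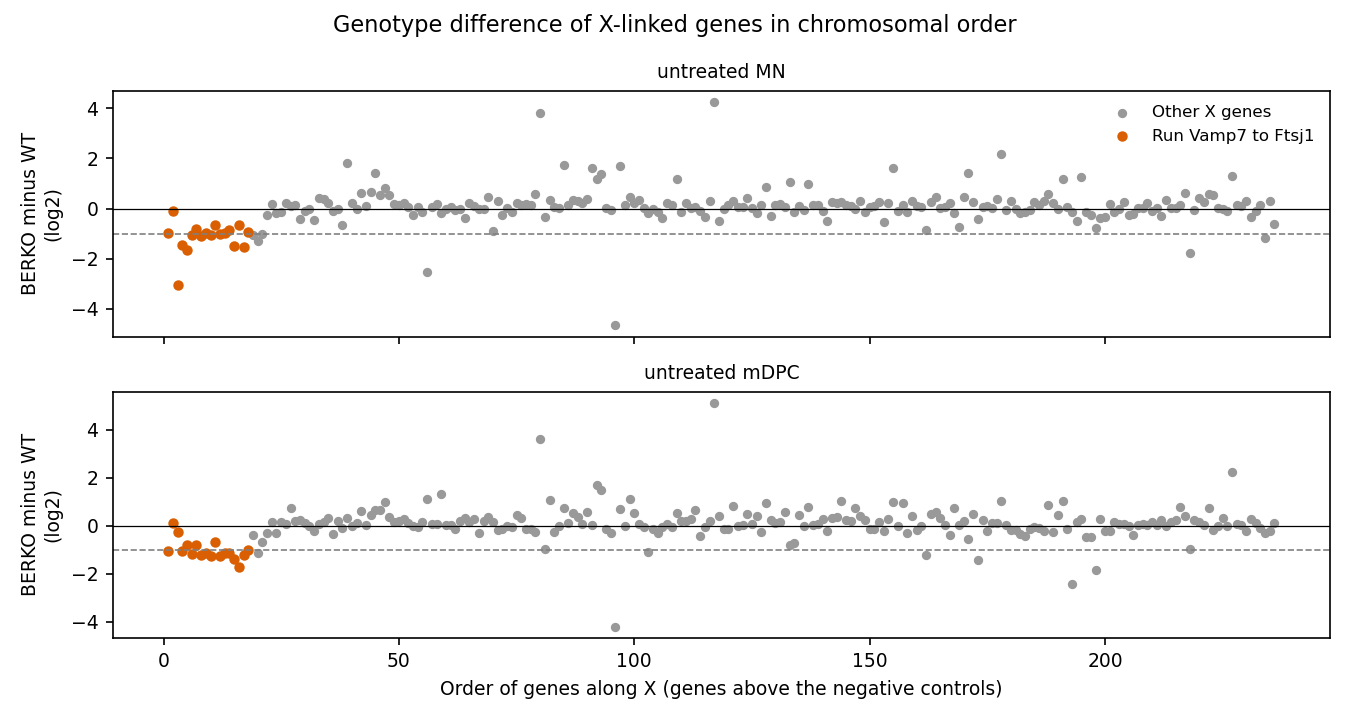
Difference BERKO minus WT (log2, y axis) of X-linked genes above the negative controls in their order along the chromosome (x axis), in untreated MN (top) and untreated mDPC (bottom); the dashed line marks -1, a 2-fold lower level. Most orange genes from Vamp7 to Ftsj1 lie near -1 in both stages, with medians of -0.99 and -1.12; Tmlhe lies near 0 in both, and Dgkk is at -3.04 in MN and -0.26 in mDPC.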

How the data were processed

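Each of the 29 samples was measured on 1 array; the labels do not say which samples are separate cultures. The deposited values are log2 signals per transcript cluster, made by the authors with SST-RMA in Affymetrix Expression Console 1.4 per the labels; the submitters' processing notes further list RMA and the Transcriptome Analysis Console. The genome build of the clusters was not given in the sources used here. SST-RMA spreads and normalizes signals between arrays, so a shift shared by all genes cannot be seen.

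Of 65956 clusters, 30604 had 1 gene symbol, 2146 several and 33206 none in the platform annotation; 827 symbols were updated through RefSeq (GRCm38.p6). For 355 genes with several clusters the one with the highest mean was used. Genes above the array median in at least 2 arrays were tested (22063). limma 3.58.1 in R 4.3.3 fitted a mean for each of 14 groups to all 29 arrays (15 residual and 3.303 prior degrees of freedom), 2-sided. The number of arrays, 2 or 3 a group, limits the precision. In simulated data the model recovered 51% of 100 shifts of 0.5 log2 units and 88% of 100 shifts of 1, with 8 false calls. Each gene had the same SD in every group there, so the wider gap between the WT arrays was not covered. Promoters are RefSeq windows, matched by symbol.

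Members and lists were chosen with earlier results of these data known. Named genes were Esr1 and Esr2; the 15 largest stable rises and falls above background, without predicted genes, small RNAs and receptor families; up to 5 called members of each list with at least 3 called, and its defining members; the 10 largest gaps between WT arrays; and the 5 largest differences each way between MN and mDPC. Of the 882 genes in the 45 lists, 811 were on the array under a symbol. Others named were chosen after their values were seen. Alternatives were other filters, quantile normalization, a trended robust prior, array weights, fewer arrays in the fit, each cluster separately and each array left out. Figures were drawn with matplotlib 3.10.9.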

Additional observations from a re-analysis of the deposited data

Results flagged for a closer look

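Results are given here because the test of a difference between the genotype effects of 2 stages or treatments was passed (limma, adjusted over all genes). Between untreated MN and untreated mDPC this held for 2749 genes, and between LY3201-treated and untreated MN for 139. The second count was 7 after quantile normalization and 0 in a limma fit to the 9 MN arrays alone, where 2338 genes had an unadjusted p under 0.05. The genes below were chosen by the size of their untreated MN difference or of this stage difference itself. The test uses the same MN arrays, so the sign of each value is in part fixed by that choice. Among the genes named for their size, the genotype difference of MN minus that of mDPC was positive, on the log2 scale, for Pgm5 (1.57), Susd2 (5.27), Cnmd (4.05), Spata18 (4.18), Ctsh (1.9) and Fxyd1 (3.23). It was positive as well for Papss2 (3.94), Cdhr4 (3.66), Clrn1 (1.8), Col6a1 (3.48), A2m (2.12) and Padi2 (5.17). For A2m the positive value stands beside a fall in both stages, larger in mDPC. The difference was negative for Luzp2 (-1.19), Gabrb1 (-0.72), Mageb16 (-0.85), Gabra4 (-2), Dcn (-5), Apod (-3.42), Elobl (-4.14), Adcy2 (-2.32) and Colec12 (-2.65). Negative values were also found for Thbs1 (-3.5), Postn (-3.43), Snap25 (-3.04), Lox (-3.16), Lrrc9 (-1.42), Ephb6 (-1.59), Aldh1l2 (-3.75), Tmem255a (-3.64) and Ecrg4 (-3.53). For Luzp2, Gabrb1, Mageb16 and Gabra4 the negative value stands beside a rise in both stages, larger in mDPC. For Susd2, Cnmd, Spata18, Cdhr4, Col6a1 and Dcn both genotypes lay in the range of background in mDPC. Groups of 2 and 3 arrays were too small to look for single arrays that stand apart in a gene.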

How the results depend on the processing

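The count of genes called in untreated MN, 4584, became 2297 in a fit to these 5 arrays and 2771 in a fit to the 9 MN arrays. Such fits have fewer degrees of freedom, and the spread of single genes changed too. In the 5-array fit the SE of Dgkk went from 0.632 to 1.005 and that of Papss2 from 0.2925 to 0.201. With single arrays left out it ran from 3154 to 4536. The core called with each WT array alone, 2232, became 892 and 1116 in the same fits. The LY3201 comparison, 4322, became 1153 and 2142, and from 2540 (without BERKO array 2) to 3807 with arrays left out, among them 2575 without WT array 2. The difference between LY3201-treated and untreated MN, 139, became 91 without a filter, 247 with the stricter filter, 7 after quantile normalization, 25 with array weights and 0 in the fits to the compared groups or to the 9 MN arrays (2338 genes with an unadjusted p under 0.05 in each); with arrays left out it ran from 18 (without LY3201 WT array 2) to 347 (without LY3201 WT array 1). Without untreated WT array 1 it was 238, without WT array 2 32, without BERKO array 2 260, without BERKO array 3 27, and without LY3201 BERKO array 1 or 2 it was 21 or 20. The mDPC count, 3051, ran from 1852 (without BERKO array 1) to 2447. The difference between MN and mDPC, 2749, became 1617 in the fit to the compared groups and ran from 2072 to 2605. The cause of these changes was not tested. Of 223 named genes none changed sign under any alternative run; 44 lost their call in the fit to the 9 MN arrays, 43 in the fit to the compared groups, 39 without WT array 2, 16 without WT array 1 and at most 13 under any other. No paired analysis was possible because the labels give the untreated MN arrays no shared replicate numbers. Precision is limited by 2 WT arrays and, for low genes, by signal near the negative controls.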
